A study of Ricinus communis with 6 samples.

Results

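In the fifth internode of castor bean (Ricinus communis), 201 of 18875 gene rows kept nearly the same level in 6 RNA-seq libraries. The members were chosen by their measured values: each had at least 50 FPKM in every library, a highest value at most 25% above the lowest, and a mean below those of the 100 most abundant rows. FPKM corrects the fragments mapped to a gene for its transcript length and for the size of the library, so levels of different genes can be compared. The dwarf variety 071113, bred from a dwarf castor variety and Zhebisi, gave libraries D1, D2 and D3. The high-stalk variety Zhuansihao (spelled Zhansihao in the genotype labels), bred from an Lm-type female line and Zhebisi, gave L1, L2 and L3. All plants grew in the field and were sampled in fast growth, at 8 to 10 leaves. The labels give about 6 plants dissected but do not tie plants to libraries, so a spread between libraries may be partly technical.

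Genes expressed at an even level in most cells are often called housekeeping genes. Their products serve functions that most cells need, such as the cytoskeleton, protein synthesis and protein turnover. Whether the 201 rows are such genes was not tested, because almost none of them has a name. In real-time qPCR such a gene serves as the internal reference: the signal of the gene of interest is divided by that of the reference, so any change in the reference is carried into every fold change. Actin, the protein of the microfilaments that guide vesicle traffic and cell growth in plants, is one of the customary references. Plants carry a family of actin genes, whose members can differ in where and when they are expressed. The study normalized its qPCR to the actin gene LOC8269707, and this gene is one of the 201.

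The FPKM values of a library summed to between 585381 and 600050, and the 201 rows held 3.39% to 3.51% of that sum. FPKM gives no read numbers, so no counting interval can be given, but repeated ratios among low values put the depth of the other libraries at 0.867 to 1.08 times that of D1. D2 stood apart from D1 and D3: over the 1427 other rows at 50 FPKM or more in each library and outside the 100 most abundant, the median size of the log2 difference was 0.13 for the pair D1 and D3, but 0.50 for D1 and D2, 0.52 for D2 and D3 and 0.20 for D2 and L1. The study left D2 out of its gene comparison. In bulk tissue, fewer cells of a type and less RNA per cell cannot be told apart, and the defining markers of stem tissue were not checked, because the sources used here give almost no gene a name.

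Few of the abundant genes were this even. Of the 1727 rows with at least 50 FPKM in each library, 203 (11.8%) met the limit on the ratio, and 2 of those belonged to the 100 most abundant rows and were left out. Over the 1727 rows the median ratio of the highest to the lowest value was 1.59, with quartiles at 1.36 and 2.01. By mean level, without the 50 FPKM limit, the share of rows within the ratio limit was 0.468% at 1 to 5 FPKM, 10.6% at 10 to 20, 13.2% at 20 to 50, 9.50% at 50 to 100, 7.04% at 100 to 200 and 5.26% at 200 or more. Evenness was thus most frequent at intermediate levels, and the level and the ratio of each abundant row show the 201 as a thin band along the lower edge of a wide cloud.

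**Figure D1:**
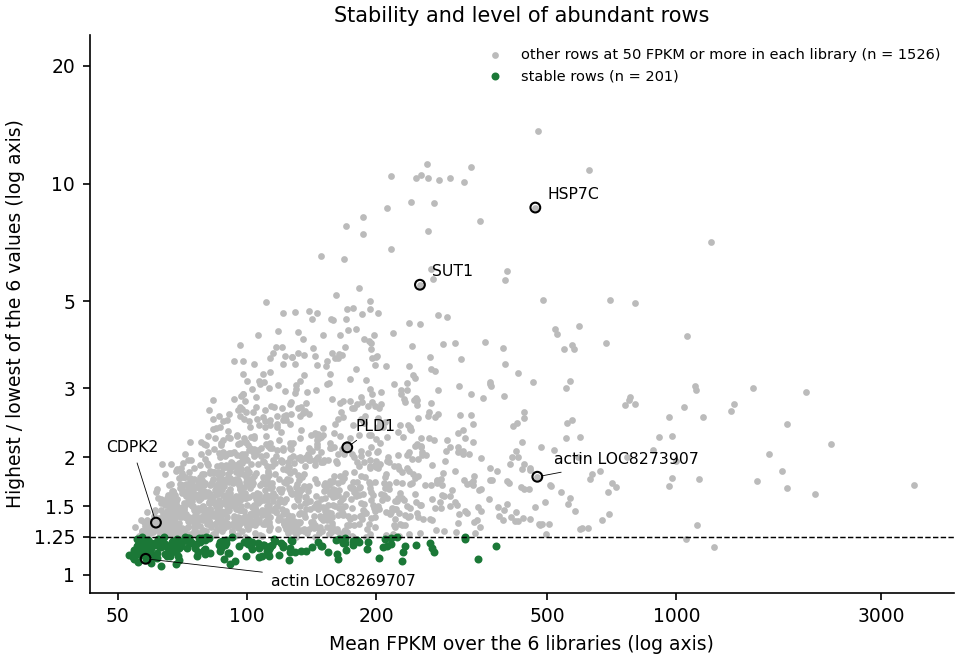
Each point is a row with at least 50 FPKM in all 6 libraries, by its mean FPKM (x axis, log scale) and the ratio of its highest to its lowest value (y axis, log scale). The dashed line is the limit on the ratio, green points are the 201 stable rows, circles mark genes named in the text, and actin LOC8269707 lies in the green band at a ratio of 1.10 while actin LOC8273907 lies at 1.78.

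Actin LOC8269707 was the only one of the 201 with a name. It had 60.9, 55.4 and 55.7 FPKM in D1, D2 and D3 and 60.3, 60.2 and 55.8 in L1, L2 and L3. D1, L1 and L2 were the high libraries and D2, D3 and L3 the low ones, so each variety held both and the groups overlapped. The mean was 57.3 ± 3.09 FPKM (SD, n = 3) in 071113 and 58.8 ± 2.56 (SD, n = 3) in Zhuansihao. Its ratio of highest to lowest was 1.10, which ranked 13th among the 201 as deposited (21st to 55th under 3 other scalings), and its coefficient of variation was 4.58%. By level it was among the lower members, 172nd of 201.

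LOC8273907 (ACT), an actin gene that RefSeq names in castor, behaved differently. It had 340, 555 and 321 FPKM in D1, D2 and D3 and 571, 564 and 497 in L1, L2 and L3. D1 and D3 lay below each high-stalk library, and D2 lay within the range of Zhuansihao. Without D2, limma gave D1 and D3 relative to Zhuansihao a log2 difference of -0.72 (standard error 0.15, adjusted p = 0.0430). Over all 6 libraries it was -0.47 (standard error 0.26, adjusted p = 0.642). The direction held in 10 of 10 other settings, with log2 differences from -0.78 to -0.66, but in 7 of them the adjusted p was over the threshold (range 0.0317 to 0.252), among them those without D1, D3, L1, L2 or L3, where it was 0.252, 0.247, 0.0707, 0.0857 and 0.0555. The ratio of LOC8273907 to LOC8269707 was 5.58 in D1 and 5.76 in D3, against 10.0 in D2 and 8.90 to 9.47 in Zhuansihao.

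**Figure D2:**
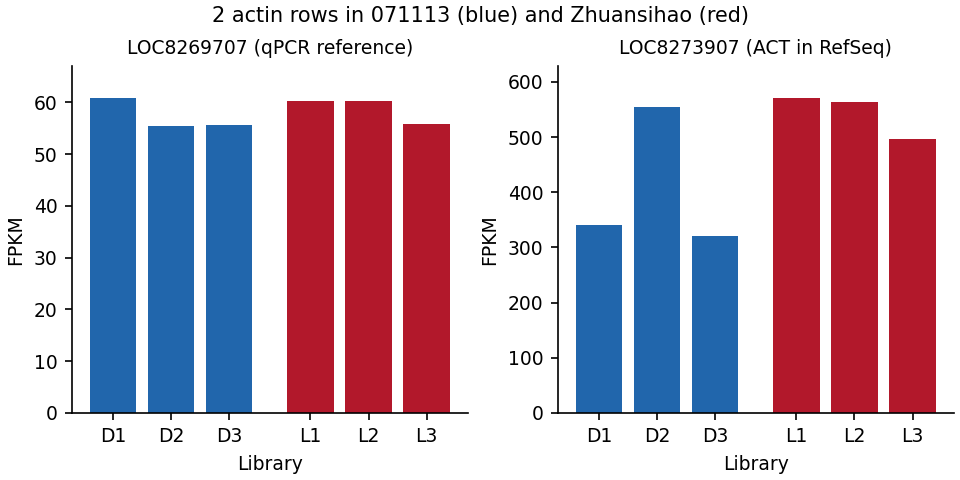
FPKM (y axis, from 0) of both actin genes in each library (x axis), blue for 071113 and red for Zhuansihao, 1 bar per library. LOC8269707 stays between 55.4 and 60.9 FPKM, while LOC8273907 is at 321 to 340 in D1 and D3 and at 497 to 571 in the other libraries.

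The 10 tightest rows had ratios from 1.05 to 1.10, and each was tighter than actin as deposited. None of these IDs is paired with a gene name in the files, the study or the RefSeq table, so no role is given for them. LOC8259815 was the most even, with 65.3, 62.1 and 62.5 FPKM in D1, D2 and D3 and 62.7, 62.3 and 63.2 in L1, L2 and L3. Here D1 stood slightly above 5 libraries that lay within 62.1 to 63.2 FPKM. LOC8270192 came next, with 88.1, 88.9 and 91.2 FPKM in D1, D2 and D3 and 93.4, 93.4 and 93.8 in L1, L2 and L3. Its dwarf libraries all lay below its high-stalk libraries, and the 3 Zhuansihao values differed by less than 1 FPKM. LOC8270246 had 69.7, 66.2 and 66.0 FPKM in D1, D2 and D3 and 70.3, 67.8 and 69.0 in L1, L2 and L3.

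In LOC8270246 the ranges of the varieties overlapped, as they did in LOC8275343 (57.3 to 61.5 FPKM), LOC8282566 (53.6 to 57.9) and LOC8285764 (90.6 to 98.3). LOC8274281 had the highest level of the 10, with 221, 238 and 221 FPKM in D1, D2 and D3 and 231, 223 and 240 in L1, L2 and L3. D1 and D3 were nearly equal and D2 was close to L3. LOC8271410 lay between 118 and 129 FPKM, with D3 the lowest and D1 the highest. LOC8258679 lay between 65.9 and 72.1 FPKM and LOC8263113 between 85.4 and 93.6. The plot of the 10 tightest rows shows that no single library was high or low in all of them.

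**Figure D3:**
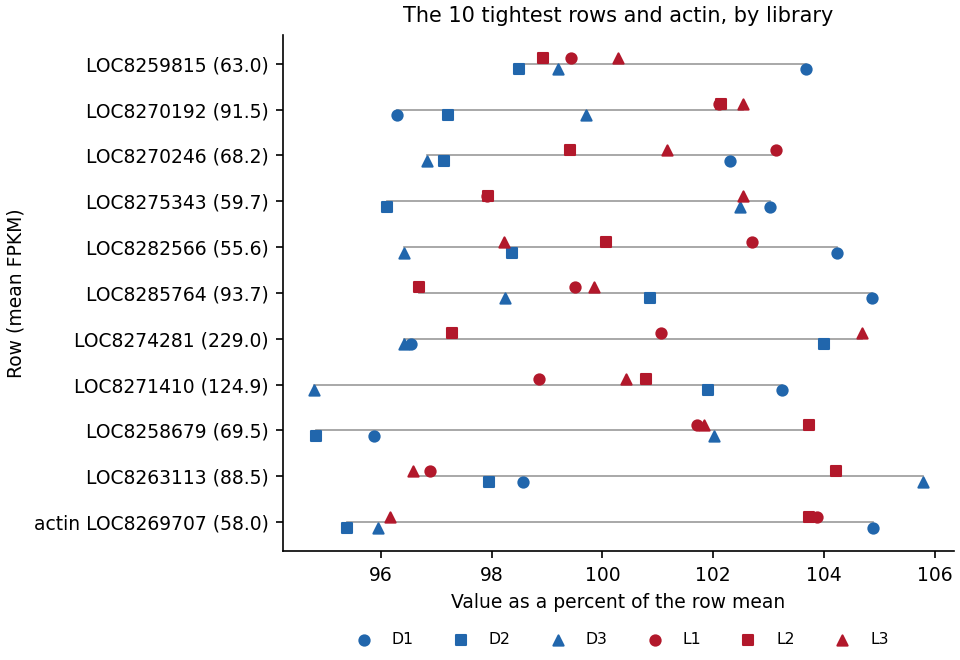
The 10 tightest rows and actin (y axis, mean FPKM in brackets), with the value in each library as a percent of the row's mean over the 6 libraries (x axis). Blue marks are D1 to D3, red marks L1 to L3, and grey lines join the lowest and highest value, which span 1.05-fold in LOC8259815 and 1.10-fold in actin.

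By level the members ran from a mean of 53.1 to 381 FPKM, with a median of 76.6. The mean was under 100 FPKM in 132 rows, 100 to 200 in 51 and 200 or more in 18. The most abundant was LOC8287622, with 375, 385 and 404 FPKM in D1, D2 and D3 and 409, 366 and 345 in L1, L2 and L3. L1 was its highest and L3 its lowest library. LOC8287728 combined a high level with a low ratio of 1.10, at 355, 327 and 338 FPKM in D1, D2 and D3 and 332, 357 and 359 in L1, L2 and L3. The 3 that followed were LOC8289824 with a mean of 322 FPKM, LOC8288258 with 322 and LOC8261004 with 273.

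The 5 rows with the lowest mean were LOC8283866, LOC8278554, LOC8285027, LOC8274374 and LOC8263280, with means from 53.1 to 54.6 FPKM and ratios from 1.10 to 1.16. The highest of the 6 values exceeded the lowest by at most 10% in 13 members, at most 15% in 53 and at most 20% in 129. The coefficient of variation ran from 1.90% to 9.63%, with a median of 6.49%.

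The limits set sharp edges on a continuous spread. Just inside the limit on the ratio were LOC8270849, LOC8282915 and LOC8274089, all at 1.247. Just outside it were LOC8285448 at 1.2504, LOC8275182 at 1.2507 and LOC8272597 at 1.2519, so these 6 rows were practically alike. At the 50 FPKM limit, the lowest value was 50.1 FPKM in LOC8276511, 50.2 in LOC8283866 and 50.3 in LOC8274374, which are members. It was 49.9 in LOC8282610, 49.9 in LOC8272582 and 49.7 in LOC8282543, which are not, with ratios of 1.14, 1.16 and 1.19. The rows within the ratio limit that were too abundant to be members were LOC8264152 (1142 to 1347 FPKM, ratio 1.18) and LOC107262154 (951 to 1173 FPKM, ratio 1.23). The 100th most abundant row had a mean of 424 FPKM.

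The differences that were left among the 201 rows were small and did not lie mainly between the varieties. On the log2(FPKM + 1) scale, the difference of 071113 from Zhuansihao had a median of -0.01 without D2 (0.04 with median-ratio scaling), with 93 rows above 0 and 108 below, and it ran from -0.22 to 0.24. Its median size was 0.07, against 0.33 over the 15925 rows tested. Over all 6 libraries the median was -0.01 as well, with 84 rows above 0 and 117 below and a median size of 0.06, against 0.22 over the 16236 rows tested. The rule bounds these values, so they describe the members and are no test. Within a variety the median ratio of highest to lowest was 1.12 in 071113 and 1.11 in Zhuansihao, and the range was wider in 071113 in 125 rows and wider in Zhuansihao in 76.

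With limma, under a threshold of 0.05 on the adjusted p and of 2 on the size of the log2 difference, 0 of the 201 were called without D2, where 2.53% of all tested rows were called. At an adjusted p under 0.05 alone, again 0 members were called, against 13.1% of all tested rows. Over all 6 libraries 0 members were called by either rule, against 0.0123% of all tested rows by each. The count of members at an unadjusted p under 0.05 was 0 in both fits as well. The rule used the same libraries, so nothing is read from these counts.

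Members whose libraries separated the varieties were no more frequent than such rows in the whole table. Without D2, D1 and D3 lay above each high-stalk library in 25 members (12.4%), where 25.5% of all tested rows did so, and below each in 37 (18.4%), where 32.8% did so. With all 6 libraries, the 3 dwarf libraries lay above each high-stalk library in 10 members (4.98%, against 7.44% of all tested rows) and below each in 15 (7.46%, against 7.41% of all tested rows). These shares are at or under the background, so they are no result about the members, and the examples given here only show the size of such a separation and were picked for it. LOC8278777 had 238, 228 and 228 FPKM in D1, D2 and D3 and 212, 192 and 199 in L1, L2 and L3. LOC8284867 had 115, 122 and 119 FPKM in D1, D2 and D3 and 131, 133 and 135 in L1, L2 and L3. In LOC8278777 each dwarf library was thus above each high-stalk library, and in LOC8284867 below.

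Among the stable rows, D2 was closest to L1 and D1 to D3. The median size of the log2 difference between a pair of libraries was 0.07 between D2 and L1 and 0.08 between D1 and D3, and 0.11 between D1 and D2. It was 0.09 to 0.11 for each of the other pairs. After each row was centred on its mean, the correlation across the 201 rows was 0.28 between D1 and D3 and 0.27 between D2 and L1, and it was -0.59 between D1 and L1, -0.37 between D3 and L1, -0.38 between D1 and D2 and -0.34 between D2 and D3. Pairs outside this grouping were as negative, with -0.35 between D3 and L3 and -0.34 between D2 and L2, and the remaining 7 ran from -0.25 to -0.08. Centring alone pulls such correlations to about -0.2, and the rows share their libraries, so these values are descriptions and carry no p-value. D1 was the highest library in 51 of the 201 rows, L2 in 46, L1 in 38, L3 in 29, D2 in 20 and D3 in 17. D2 and D3 were each the lowest in 51, L3 in 34, L2 in 25, L1 in 21 and D1 in 19.

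**Figure D4:**
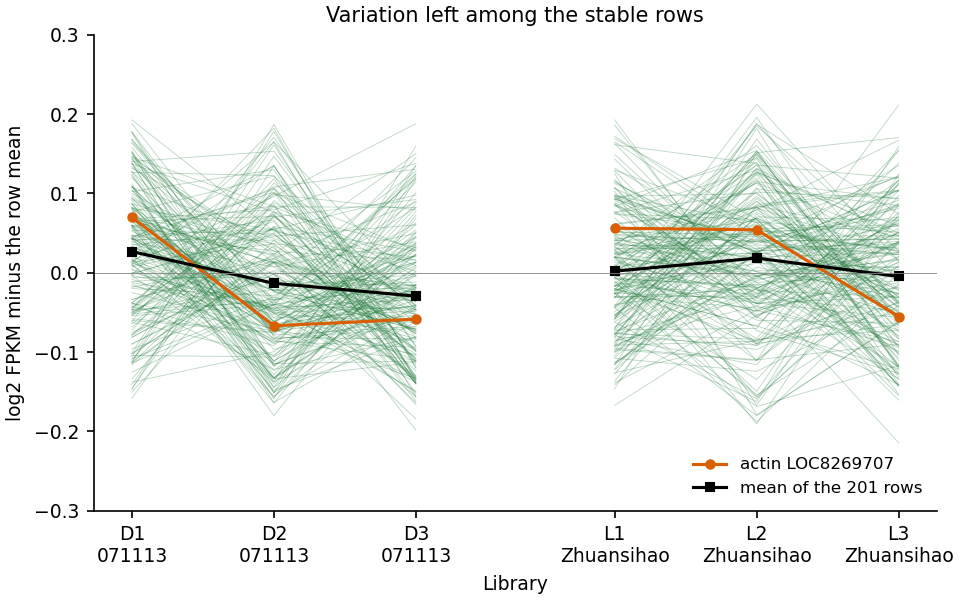
Values of the 201 stable rows in each library (x axis) as log2 FPKM minus the row's mean over the 6 libraries (y axis). Each thin green line is 1 row, the black line is their mean and the orange line is actin LOC8269707, and the mean of the rows stays within 0.03 of 0 in each library while actin reaches 0.07 in D1 and -0.07 in D2.

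Averaged, the stable rows were more even than any row alone. Their geometric mean was 91.4, 89.0 and 88.0 FPKM in D1, D2 and D3 and 89.9, 90.9 and 89.5 in L1, L2 and L3, a span of 1.04-fold. The rule bounds this span, and averaging evens out the deviations of single rows, so the span is a description and no test. Again D1 was the highest and D3 the lowest library, both of the dwarf variety. The average SD of the log2 ratio of a row to each other member, a customary measure of the stability of reference genes, was 0.10 for actin. That ranked 13th, and over the members this SD ran from 0.09 in LOC8259815 to 0.16 in LOC8274900, with a median of 0.12. It was taken only among rows already chosen for a low ratio in the same libraries. The rule thus bounds it, and the rank is no separate test of actin. LOC8274900 had 62.6, 62.5 and 52.3 FPKM in D1, D2 and D3 and 54.4, 51.3 and 62.5 in L1, L2 and L3, which puts D1, D2 and L3 high and D3, L1 and L2 low.

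Whether rows chosen in some libraries stay even in another was examined with each library left out in turn. The rows were chosen by the same rule on 5 libraries, and the value in the sixth, which the choice had not used, was set against the geometric mean of the other 5. A value was taken as kept where it was at most 25% above that mean or below it by at most the same factor. D1 was kept in 236 of 246 chosen rows (95.9%), against 60.8% of all rows at 50 FPKM or more in those 5 libraries. The 100 most abundant rows were left out of both shares. The same shares were 78.3% and 49.5% for D2, 93.0% and 58.7% for D3, 98.3% and 71.1% for L1, 92.3% and 74.4% for L2 and 94.5% and 83.0% for L3. The chosen rows thus held a larger share within the limit in each of the 6 libraries, with D2 the least well kept. The chosen rows are part of the rows they are set against, and rows share their libraries, so no p-value is given.

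The ratio limit alone, without the limits on the level, was also met over all 6 libraries by 202 of the 246 rows chosen without D1, 208 of 383 without D2, 204 of 286 without D3, 203 of 232 without L1, 201 of 271 without L2 and 203 of 253 without L3. Leaving D2 out thus lengthened the list most, to 383 rows, and 175 of these went past the ratio limit once D2 was added. In D2 itself, 27 of the 383 were more than 25% above the mean of the other libraries and 56 were below it by more than the same factor. The extremes were LOC8272126, at 1.77 times that mean, and LOC8281787, at 0.546 times. Actin LOC8269707 was chosen in each of the 6 cases. For a member of its level this follows from the rule, since leaving a library out cannot raise the ratio or the limit it must meet.

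**Figure D5:**
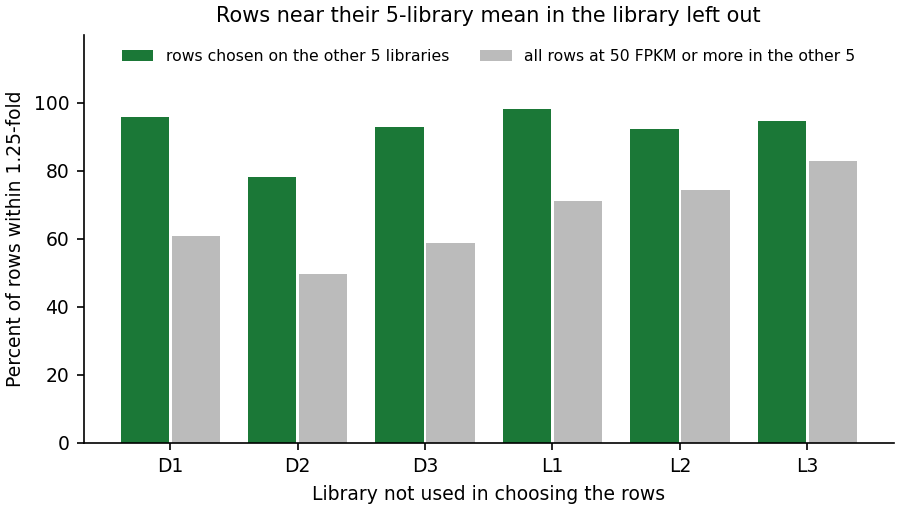
Percent of rows (y axis) whose value in the library left out (x axis) was at most 25% above the geometric mean of the other 5 libraries, or below it by at most the same factor. Green bars are rows chosen by the rule on those 5 and grey bars all rows at 50 FPKM or more in them, outside the 100 most abundant, and the bars read 78.3% and 49.5% for D2 and 98.3% and 71.1% for L1.

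Rows even within a single variety were also followed into the other variety. The 100 rows with the highest mean over all 6 libraries were left out of all counts given here. Within 071113, 540 of 1801 rows at 50 FPKM or more in its 3 libraries met the ratio limit, and in 436 of them (80.7%) the mean of Zhuansihao was within the same factor of that of 071113, against 69.7% of all 1801 rows. Within Zhuansihao, 1078 of 2123 rows met it, and in 875 of them (81.2%) the mean of 071113 was within that factor, against 66.9% of all 2123. Rows even within Zhuansihao included LOC107262163, whose mean in 071113 was 2.72 times as high, and LOC8280340, whose mean there was 0.390 times as high. Both lists hold all 201 members. For the ratio limit and the 50 FPKM limit this follows from the rule. Leaving out the other variety cannot raise a ratio or lower a lowest value.

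The choice of reference was then carried to the genes measured by qPCR in the study. These log2 differences are descriptions, without D2. Actin LOC8269707 itself differed between the varieties by -0.01 on the log2 scale and the mean of the 201 rows by -0.01. Either reference thus gave nearly the same result. Actin LOC8269707 is among the 201 rows, and the rule keeps the log2 difference of each of them to at most 0.322 in size. The rule thus bounds how far these references can part, so their match is no test of actin. CLPB1, a chaperone that takes apart aggregated protein, differed by 5.75 relative to actin LOC8269707 and by 5.74 relative to the stable rows, both higher in D1 and D3. HSP7C, a chaperone of the heat shock 70 family, had 2.67 and 2.66, and NAC, a transcription factor gene, had 3.12 and 3.11.

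PME45, a pectin methylesterase, had 2.72 and 2.72, PGLR, a polygalacturonase that cleaves pectin, had 2.56 and 2.55, and PER, a peroxidase, had 2.23 and 2.22. SAU50, a small auxin-up RNA gene, had -1.93 and -1.94. PER (0.546 to 9.53 FPKM) and SAU50 (1.21 to 14.5 FPKM) were so low that the 1 FPKM added before taking logs shrank their values. Without it and before division by a reference, the difference was 3.25 for PER and -2.57 for SAU50, against 2.22 and -1.94 with it. The other genes shrank less: CLPB1 had 5.95 without it and 5.73 with it, PME45 2.87 and 2.71, and PGLR 2.73 and 2.54. NAC had 3.19 and 3.11, and HSP7C 2.66 and 2.66. Relative to actin LOC8273907, which was lower in D1 and D3, the same differences came to 6.45 for CLPB1, 3.37 for HSP7C, 3.82 for NAC, 3.43 for PME45, 3.26 for PGLR, 2.93 for PER and -1.23 for SAU50. The choice between the actin genes therefore moved every value by the same amount, about 0.70 on the log2 scale, which is the difference between the 2 references. The largest difference of a reference was -0.72 (actin LOC8273907), and the smallest of the 7 genes before division was -1.94 (SAU50). No direction could therefore change, and the direction of each of the 7 genes was the same with all 3 references. D2 moved these values far more than the choice between actin LOC8269707 and the stable rows: with it, relative to actin LOC8269707, they came to 4.81 for CLPB1, 2.47 for HSP7C, 2.25 for NAC, 1.65 for PME45, 1.47 for PGLR, 1.44 for PER and -1.26 for SAU50.

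Genes with a name in the RefSeq table gave no further member. Of these, 16 had at least 50 FPKM in each library and 0 met the ratio limit, which 11.8% of all rows at that level met. Their ratios ran from 1.36 to 5.51, with a median of 2.01. The most even was CDPK2 (LOC8270554), a calcium-dependent protein kinase, with 53.5, 72.8 and 53.6 FPKM in D1, D2 and D3 and 69.7, 59.9 and 58.5 in L1, L2 and L3. D2 and L1 were its high libraries. The least even was SUT1 (LOC8262746), a sucrose carrier, with 344, 73.6 and 296 FPKM in D1, D2 and D3 and 153, 406 and 245 in L1, L2 and L3. With D1 and D3 against Zhuansihao, 3 of the 16 passed an adjusted p under 0.05 in limma, 1 higher and 2 lower. Of all tested rows, 13.1% did so. The fold threshold too was passed by 0 of the 16, against 2.53% of all tested rows. With so few genes, nothing is read from these counts. Beside actin LOC8273907, the genes that passed the adjusted p were NHX1 (LOC8288459), a sodium/proton antiporter, with a log2 difference of 0.82 (standard error 0.10, adjusted p = 0.0169), and PLD1 (LOC8282326), a phospholipase D, with -0.88 (standard error 0.14, adjusted p = 0.0244).

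NHX1 had 124 FPKM in D1, 80.0 in D2, 115 in D3 and 65.0, 65.0 and 72.4 in L1, L2 and L3. PLD1 had 106, 197 and 114 FPKM in D1, D2 and D3 and 225, 207 and 178 in L1, L2 and L3. NHX1 was thus above each high-stalk library in all 3 dwarf libraries, while D2 of PLD1 lay in the high-stalk range. Over all 6 libraries 0 of the 16 passed, against 0.0123% of all tested rows, with an adjusted p of 0.427 for NHX1 and 0.579 for PLD1. NHX1 missed the threshold in 3 of 10 other settings, without D1 (0.163), without D3 (0.121) and with the replicate number as a block (0.0899). PLD1 missed it in 4, which were these 3 (0.203, 0.150 and 0.104) and the setting without L2 (0.0605).

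Below 50 FPKM, 2 of the named genes were as even as the members. LACS4 (LOC8287768), a long-chain acyl-CoA synthetase, had 40.6, 38.9 and 40.2 FPKM in D1, D2 and D3 and 37.2, 41.8 and 44.1 in L1, L2 and L3, with a ratio of 1.18. DGAT2 (LOC8258757), which makes triacylglycerol from diacylglycerol, lay between 22.8 FPKM in L3 and 27.2 in L2, with a ratio of 1.19. In both the varieties overlapped. Besides actin, the most even of the genes named in the study and examined here was ARF LOC8259066, an auxin response factor, with a ratio of 1.62. The study lists it as lower in 071113. Here it had 64.6, 63.1 and 73.4 FPKM in D1, D2 and D3 and 66.4, 45.4 and 51.0 in L1, L2 and L3. Without D2, limma gave it a log2 difference of 0.36, higher in D1 and D3 (standard error 0.18, adjusted p = 0.229).

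Among the 1726 other rows at 50 FPKM or more in each library, those nearest to actin LOC8269707 in their pattern over the 6 libraries, by the Euclidean distance of the centred log2 values, were LOC8282566 (0.08), LOC8267333 (0.08), LOC8282364 (0.09), LOC8276674 (0.10) and LOC8285027 (0.10). All 5 are stable rows. A row this close to the nearly flat pattern of actin must itself lie within the ratio limit, so this is no separate finding. LOC8267333 had 63.0, 57.6 and 61.6 FPKM in D1, D2 and D3 and 62.9, 63.9 and 57.6 in L1, L2 and L3, and so shared with actin the low values in D2 and L3 but not the one in D3. LOC8282364 had 60.7, 54.5 and 54.1 FPKM in D1, D2 and D3 and 55.8, 60.2 and 54.3 in L1, L2 and L3, and differed from actin most in L1.

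The stable rows were also examined for neighbours among themselves. All 201 IDs matched an entry of the castor RefSeq assembly ASM1957865v1, and 2 pairs were next to each other among protein-coding genes. The number of such pairs in other sets of rows was not counted, so nothing is read from it. In the pair LOC8259846 and LOC8259847, the first had 70.1, 83.6, 75.2, 84.9, 81.1 and 72.0 FPKM in D1, D2, D3, L1, L2 and L3 and the second 79.8, 71.7, 77.7, 76.7, 78.6 and 68.3. D2 was a high library of the first and a low library of the second. In the pair LOC8268382 and LOC8268380, the first had 74.1, 68.7, 64.2, 72.6, 78.9 and 69.3 FPKM in the same order and the second 67.7, 66.3, 67.8, 69.2, 62.0 and 63.0. L2 was the highest library of the first and the lowest of the second, so in neither pair did the neighbours follow each other.

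Which rows count as stable depended in part on how the libraries are scaled. With median-ratio scaling, in which each library is divided by the median of its ratios to the mean of all libraries, 195 rows met the rule and 157 of these were among the 201. With each library set to the same sum it was 205, 192 of them among the 201, and with upper-quartile scaling 196, 184 of them among the 201. The rule was met as deposited and under all 3 scalings by 154 rows (76.6%), including each of the 10 tightest rows and actin. The ratio of actin LOC8269707 was 1.12 with a common sum, 1.13 with upper-quartile scaling and 1.15 with median-ratio scaling, which ranked it 21st, 27th and 55th among the 201. With median-ratio scaling LOC8263113, at 1.16, was less even than actin, while the other 9 of the 10 tightest rows stayed more even. That of LOC8259815 was 1.06, 1.08 and 1.11, and LOC8270192 had 1.08, 1.07 and 1.08.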

How the data were processed

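The authors filtered the reads of 6 poly(A) libraries, sequenced on the Illumina HiSeq platform, and deposited FPKM per gene row and library, replicates not pooled. Which aligner, counter, annotation and build made them is not given in the sources used here. Rows were used as deposited; no member's name has more than 1 row. The rule for the members, the gene lists and the tests were chosen with earlier results of these data known.

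The whole table was tested with limma 3.58.1 (R 4.3.3) on log2(FPKM + 1), which understates changes of low rows, with its trend option and p-values adjusted by Benjamini-Hochberg, for rows with at least 1 FPKM in at least 2 libraries. The fit left D2 out, as the study did, and was repeated with it. The study's own test models reads and was not run. The limma step was tested on simulated data. Other steps ran in Python 3.11.15 with numpy 2.4.6 and pandas 2.3.3, and figures were drawn with matplotlib 3.10.9.

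Named are, by rule, the 10 tightest rows, the 5 highest and 5 lowest by mean, the 3 rows on each side of a limit, the genes the study used in qPCR, RefSeq-named rows and the 5 rows nearest to actin in pattern; of the named genes at 50 FPKM or more, the most and least even and those that passed the test are printed. The members shown for separating the varieties or as extremes, and the comparison with actin LOC8273907, were picked after their values were seen. The RefSeq table was used for names and neighbours only, and no coordinates are given. Lists of other customary reference families (tubulin, ubiquitin, elongation factor 1-alpha, GAPDH and the like) and of cell functions need gene descriptions, which no source used here pairs with the IDs, so those lists and the planned sequence features were not analysed here. Of the lists, the one for actin had 2 rows, of which 1 is a member.

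Alternatives were other scalings, limits, pseudocounts and filters, limma without the trend, the replicate number as a block, and each library left out in turn.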

Additional observations from a re-analysis of the deposited data

How the results depend on the processing

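The 201 stable rows became 129 with a ratio limit of 1.2, 699 with 1.5, 756 with a minimum of 20 FPKM and 61 with 100 FPKM. They became 232 to 383 with each library left out, the highest without D2. The ratio of actin LOC8269707, 1.10 as deposited, was 1.12 to 1.15 under the 3 other scalings, the highest with median-ratio scaling. It was 1.09 to 1.10 with each library left out, which cannot raise it. The median log2 difference of the stable rows between varieties, -0.01, was 0.042 with median-ratio scaling and -0.052 to 0.032 with each library left out (-0.052 without D1, 0.032 without D3), so its sign is not settled. For all genes, limma called 403 without D2, 674 with a pseudocount of 0.1 and 0 with the replicate number as a block. With each library left out it called 0 to 364, with 0 without D1 or without D3 (at an unadjusted p under 0.05, 1261 and 1323 higher, 1449 and 1676 lower), where 1 dwarf library is taken to vary like the high-stalk ones. Of all 6 libraries it called 2, with 0 under the block and 0 to 403 with each left out. The 403 were without D2, and leaving out any other library gave 0, where an unadjusted p under 0.05 was reached by 421 to 685 genes upward and 271 to 618 downward. At an unadjusted p under 0.05, the block left 1991 genes higher and 2593 lower without D2, and 600 and 472 over all 6. Nothing says that the shared replicate numbers pair the samples. The correlation of deviations from the variety means was -0.47 for number 1, -0.55 for number 2 and 0.33 for number 3. The deviations of 3 libraries from their own mean are tied to each other, so these correlations cannot decide it. FPKM holds no read numbers, so how much of a ratio under the limit is counting error cannot be told here.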
